A study of Mus musculus with 9 samples.

Results

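The chains of the interferon receptors were examined in the transcriptomes of mammary tumour lines from mice, some of which lack Janus kinase 1 (JAK1). The 5 genes were Ifnar1, Ifnar2, Ifngr1, Ifngr2 and Il10rb, taken by symbol from a deposited table of 24346 rows, and each had 1 row in it. The lines were labelled as derived from tumours induced by the MMTV-neu transgene, a mammary-directed neu (Erbb2) oncogene, in FVB/N mice, so every library shares that oncogene and that strain. There were 9 libraries of 6 lines, of which 5 were labelled Jak1 wild type (45555, 47298, 45566B, 33373 and 33377) and 4 Jak1 knockout (45555, 47298, 45566B and 46295). Lines 45555, 47298 and 45566B were present in both states, with Wt and Cre in the titles, and were treated with puromycin per the labels' protocols. Of 33373 and 33377 there is a wild-type library alone, and of 46295, whose title carries D6, a knockout library alone. All were grown attached in serum-containing medium with insulin, epidermal growth factor and hydrocortisone, and no interferon is named among the additions. The sources used here give neither the age of the animals nor whether a line is 1 clone.

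Interferons act through receptors built from 2 different chains, each of which carries a Janus kinase on its cytoplasmic tail. For type I interferons, IFNAR2 is the high-affinity chain and carries JAK1, and IFNAR1 completes the receptor and carries TYK2. For interferon gamma, IFNGR1 binds the ligand and carries JAK1, and IFNGR2 carries JAK2. IL10RB carries TYK2 and is the shared second chain of the receptors for type III interferons and for several cytokines of the interleukin 10 family. Ligand binding leads to phosphorylation of STAT proteins. The ISGF3 complex, which holds STAT2 and IRF9, binds interferon-stimulated response elements (ISRE), and STAT dimers bind gamma-activated sites (GAS).

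Ifnar2, Il10rb, Ifnar1 and Ifngr2 lie next to each other on the plus strand of chromosome 16 within 192.8 kb, and Ifngr1 lies on chromosome 10, in the GENCODE M21 annotation of build GRCm38 (mm10). Ifnar2 runs from 91372783 to 91405589 and has 5 coding transcripts, which a value for the whole gene does not separate. Il10rb starts 574 bases after the end of Ifnar2 and runs from 91406164 to 91425834. Ifnar1 runs from 91485238 to 91507441, Ifngr2 from 91547072 to 91565623, and Ifngr1, on the plus strand of chromosome 10, from 19591949 to 19610229. The annotation also holds a coding model named Gm21970, from 91391721 to 91419451, which overlaps both Ifnar2 and Il10rb and has no row of its own in the table used here, so the values of these genes may include its fragments.

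The stretches before the receptor genes are shown because many targets of these receptors carry ISRE letters there. Each sequence is the 250 bases before the RefSeq start of the gene (GRCm38.p6), from 5′ to 3′ on the gene's strand, with any match to the ISRE core (GAAA and GAAA separated by 2 bases) or to GAS (TTC and GAA separated by 3 bases), on either strand, in capitals. Ifnar2 is at chr16:91372533-91372782, Ifnar1 at chr16:91484965-91485214, Ifngr2 at chr16:91546809-91547058 and Ifngr1 at chr10:19591699-19591948. Isg15, a ubiquitin-like modifier induced by ISGF3, at chr4:156200819-156201068 on the minus strand, is given for comparison.
Ifnar2: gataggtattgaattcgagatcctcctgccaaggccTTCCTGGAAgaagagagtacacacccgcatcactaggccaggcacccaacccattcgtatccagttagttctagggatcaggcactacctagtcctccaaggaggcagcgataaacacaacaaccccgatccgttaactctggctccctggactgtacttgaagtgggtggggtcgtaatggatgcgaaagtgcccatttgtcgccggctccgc
Ifnar1: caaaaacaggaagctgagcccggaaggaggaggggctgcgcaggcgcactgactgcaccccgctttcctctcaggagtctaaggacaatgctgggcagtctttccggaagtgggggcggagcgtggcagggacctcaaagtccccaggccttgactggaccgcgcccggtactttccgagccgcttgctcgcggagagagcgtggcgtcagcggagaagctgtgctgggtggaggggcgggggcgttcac
Ifngr2: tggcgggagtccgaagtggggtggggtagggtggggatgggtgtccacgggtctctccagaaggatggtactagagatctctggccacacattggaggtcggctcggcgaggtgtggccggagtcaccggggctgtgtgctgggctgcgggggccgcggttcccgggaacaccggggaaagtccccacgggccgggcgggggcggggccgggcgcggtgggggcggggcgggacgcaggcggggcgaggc
Ifngr1: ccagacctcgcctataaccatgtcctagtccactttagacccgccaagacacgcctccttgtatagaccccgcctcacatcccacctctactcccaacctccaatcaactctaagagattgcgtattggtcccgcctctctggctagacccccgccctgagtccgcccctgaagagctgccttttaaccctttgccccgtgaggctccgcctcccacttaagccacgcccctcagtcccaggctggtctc
Isg15: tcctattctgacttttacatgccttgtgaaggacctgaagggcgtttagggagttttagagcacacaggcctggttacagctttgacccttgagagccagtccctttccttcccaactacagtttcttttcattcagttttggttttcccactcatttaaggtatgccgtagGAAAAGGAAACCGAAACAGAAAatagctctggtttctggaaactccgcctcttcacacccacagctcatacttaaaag
Of the 5 receptor genes, 4 had an entry in the sequence table. No ISRE core was found in these 4 windows, and 1 GAS match was found, in Ifnar2. The Isg15 window held 3 overlapping ISRE cores. Over all 32851 windows of this length in the table, 2.98% held an ISRE core and 7.02% a GAS match. Of 13 genes of a list of ISGF3 targets with an entry, 7 held an ISRE core and 2 a GAS match. Of 13 genes of a list of gamma-activated targets, 8 held an ISRE core and 6 a GAS match. Both lists were counted by gene, with a match in any window of the gene, whereas the shares over all were counted by window. The units therefore differ. The G and C content of the receptor windows was 54.0% for Ifnar2, 59.2% for Ifngr1, 65.6% for Ifnar1 and 74.0% for Ifngr2, against a median of 52.4% over all windows. A match describes letters only and shows no binding.

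Values are FPKM, which is fragments scaled by transcript length and by sequencing depth, so the levels of different genes can be roughly compared. The sum of FPKM over all genes still ran from 567403 (33373) to 721751 (47298 wild type). In 45555, 47298 and 45566B it was lower in the knockout library. The absolute depth is unknown. From what 1 fragment is worth in low values, the relative depth of the libraries ran from 0.416 (46295) to 1.0 (45566B wild type). The number of genes at 1 FPKM or more was 10821 to 11622. Most markers of epithelium set the lines apart. Krt19, among the 10 summed here, went the other way. It had 5.37 and 4.70 FPKM in 45555 (wild type, knockout) and 5.97 and 0.307 in 47298. It was at 0.253 in 33373 and 0.0271 in 33377, and was listed at 0 in 45566B (both states) and 46295. The summed level of 10 epithelial markers was 2625 to 3164 FPKM in 45566B (both states), 33373 and 46295, 100.1 and 414.5 in 47298 wild type and knockout, 163.3 in 33377, and 7.18 and 7.495 in 45555, where Epcam, an epithelial adhesion molecule, was at 0.169 and 0.423 FPKM. The summed level of 10 leukocyte markers was 4.001 to 513 FPKM, mostly from Cd14 (up to 504 FPKM) and Cd68 (up to 106), while Ptprc, the common leukocyte antigen, stayed at or under 0.0293 FPKM and Cd3e, of the T cell receptor complex, was listed at 0 in all 9 libraries. Jak1, the targeted gene, had 86.7 FPKM (wild type) and 74.4 (knockout) for 45555, with 63.1 and 27.5 for 47298, 16.1 and 14.2 for 45566B, 19.4 for 33373, 54.6 for 33377 and 22.97 for 46295. Its knockout value was the lower one in 3 of 3 lines but overlapped wild type between lines, and gene-level values do not resolve a deleted part.

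Ifnar1 had the lowest level of the 5 chains in every library. Line 45555 had 14.6 FPKM (wild type) and 11.2 (knockout), line 47298 had 18.0 and 17.8, and line 45566B had 15.1 and 13.8. In the other lines it was at 17.4 FPKM in 33373, 13.2 in 33377 and 11.02 in 46295 knockout. The highest library was thus 1.63 times the lowest, and the wild-type and knockout libraries overlapped. Ifnar2, the partner chain, had, in the same order of states, 45.4 and 27.6 FPKM for 45555, 51.4 and 49.2 for 47298, and 60.1 and 43.3 for 45566B. It was highest in 33373 (75.7 FPKM), with 44.8 in 33377 and 44.2 in 46295 knockout. The lowest value was that of 45555 knockout, and the knockout libraries of 45566B and 46295 lay just under the lowest wild-type library of their comparison, 33377.

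Ifngr1 stood far higher in 1 library than in the other 8. Line 47298 had 194 FPKM (wild type) and 78.7 (knockout), against 52.9 and 40.6 in 45555 and 58.6 and 65.1 in 45566B. In the lines present in 1 state it was at 56.7 FPKM (33373), 44.8 (33377) and 59.6 (46295 knockout). Without the 47298 libraries all values of Ifngr1 lay between 40.6 and 65.1 FPKM. Ifngr2, the second chain of the same receptor, did not follow it. Its levels (wild type first) were 47.2 and 43.04 FPKM in 45555, 46.4 and 44.2 in 47298, 62.7 and 64.7 in 45566B, 56.4 in 33373, 39.03 in 33377 and 43.1 in 46295. The 45566B libraries were the highest in Ifngr2, in both states, and 33377 was the lowest.

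Il10rb differed more between lines than between the states of a line. Line 45555 had 22.2 FPKM (wild type) and 18.5 (knockout), and 33377 had 22.5. It was at 39.5 and 47.7 FPKM in 47298, 54.6 and 48.9 in 45566B, 60.6 in 33373 and 46.7 in 46295. The 3 libraries at or under 22.5 FPKM belong to lines 45555 and 33377, in which Epcam was at or under 2.36 FPKM, but 47298, in which Epcam was at 0.324 and 0.581, stood at the higher level. What sets the level was not tested.

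**Figure D1:**
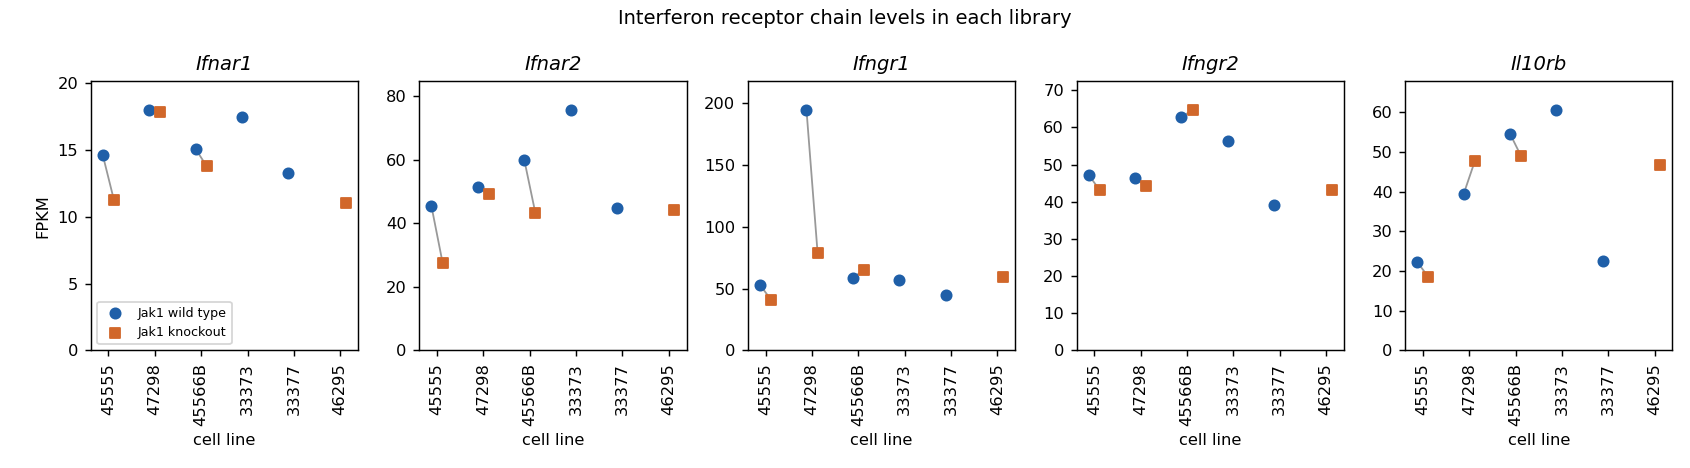
Level of each receptor chain (FPKM, linear axis from 0, a scale of its own for each gene) in 9 libraries by cell line, with blue circles for Jak1 wild type, orange squares for knockout and grey lines joining the states of a line. Each point is 1 library. Ifngr1 in 47298 wild type stands alone at 194 FPKM, and Il10rb is at or under 22.5 FPKM in 45555 and 33377.

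On average over the 9 libraries, Ifngr1 had the highest level (72.3 FPKM, SD 47.0), followed by Ifngr2 (49.7, SD 9.28), Ifnar2 (49.1, SD 13.2), Il10rb (40.1, SD 15.4) and Ifnar1 (14.7, SD 2.66). These SDs are over libraries of different lines and states. The neighbours in this order other than Il10rb and Ifnar1 lie within their spread of each other. On the log2(FPKM + 1) scale the SD over libraries was 0.25 for Ifnar1 and 0.254 for Ifngr2, which 13.7% and 14.3% of the 12198 genes whose mean reached 1 FPKM did not exceed. It was 0.384 for Ifnar2, 0.622 for Il10rb and 0.652 for Ifngr1, against a median of 0.503 over all genes.

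The comparison within lines asks what differs between the knockout and wild-type state of the same line. None of the 5 receptor chains passed the test. Their fitted differences were below 0, as were those of 51.4% of all genes, and that of Il10rb turned above 0 in 3 of 10 alternatives. Differences are knockout minus wild type in log2(FPKM + 1), fitted with limma over all genes with the line as a block (3 lines, 1 library for each state), with Benjamini-Hochberg adjustment. At the adjusted threshold of 0.05 the fit called 0 of 12063 genes (0.0%), and 405 genes (3.36%) had an unadjusted p under 0.05, among them 0 of the 5 chains. In bulk RNA, fewer cells of a type and less RNA per cell cannot be told apart. The labels name no separate cultures, so the p-values measure only how far the difference between states varied among these 3 lines.

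Ifnar2, which binds type I interferons and carries JAK1, was lower in the knockout library of all 3 lines. Its log2 differences were -0.70 in 45555, -0.06 in 47298 and -0.46 in 45566B. In 45566B, where the median absolute difference over all genes was smallest (0.132, against 0.32 in 45555 and 0.399 in 47298), 9.44% of tested genes had a difference of at least that size, and in 47298 89.6% did. The fitted difference was -0.41 (SE 0.19, 95% interval -0.93 to 0.11, limma adjusted p = 0.762). Without line 47298 it was -0.58 (adjusted p = 0.873), and without 45555 -0.26. Ifnar1 was also lower in 3 of 3 lines, by -0.35, -0.01 and -0.12, with a fitted difference of -0.16 (SE 0.16, interval -0.60 to 0.28, adjusted p = 0.791). It was -0.07 without 45555 and -0.24 without 47298. Among all tested genes 13.3% were lower in 3 of 3 lines, against 2 of the 5 chains.

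Ifngr1, the ligand-binding chain for interferon gamma, went in different directions. Its log2 differences were -0.37 in 45555, -1.29 in 47298 and 0.15 in 45566B. In 47298, 13.8% of tested genes had a difference of at least that size, and it was the only chain to reach 1 log2 unit in any line. Over all tested genes 9.88% did so in 45555, 19.5% in 47298 and 3.03% in 45566B. The fitted difference was -0.51 (SE 0.33, interval -1.40 to 0.39, adjusted p = 0.762), -0.11 without 47298 and -0.83 without 45566B. In line 47298 the summed level of 10 fibroblast and mesenchymal markers went from 7987 to 1545 FPKM, although Dcn, among them, rose from 12.2 to 27.3. That of 6 adipocyte markers went from 1307 to 54.2. The change in epithelial markers given above came mostly from Krt8 (38.5 to 156.6) and Krt18 (52.7 to 250.3), while Krt19 fell from 5.97 to 0.307. The part of these markers in the Ifngr1 difference was not tested.

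Ifngr2 and Il10rb showed the smallest fitted differences. Ifngr2 differed by -0.13 in 45555, -0.07 in 47298 and 0.04 in 45566B, with a fitted difference of -0.05 (SE 0.14, interval -0.45 to 0.34, adjusted p = 0.925), -0.01 without 45555 and -0.10 without 45566B. Il10rb differed by -0.26 in 45555, 0.27 in 47298 and -0.15 in 45566B, fitted at -0.05 (SE 0.18, interval -0.54 to 0.44, adjusted p = 0.944), and its sign turned when 45555 or 45566B was left out (0.06 and 0.01). Without 47298 it was -0.21 (adjusted p = 0.873).

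**Figure D2:**
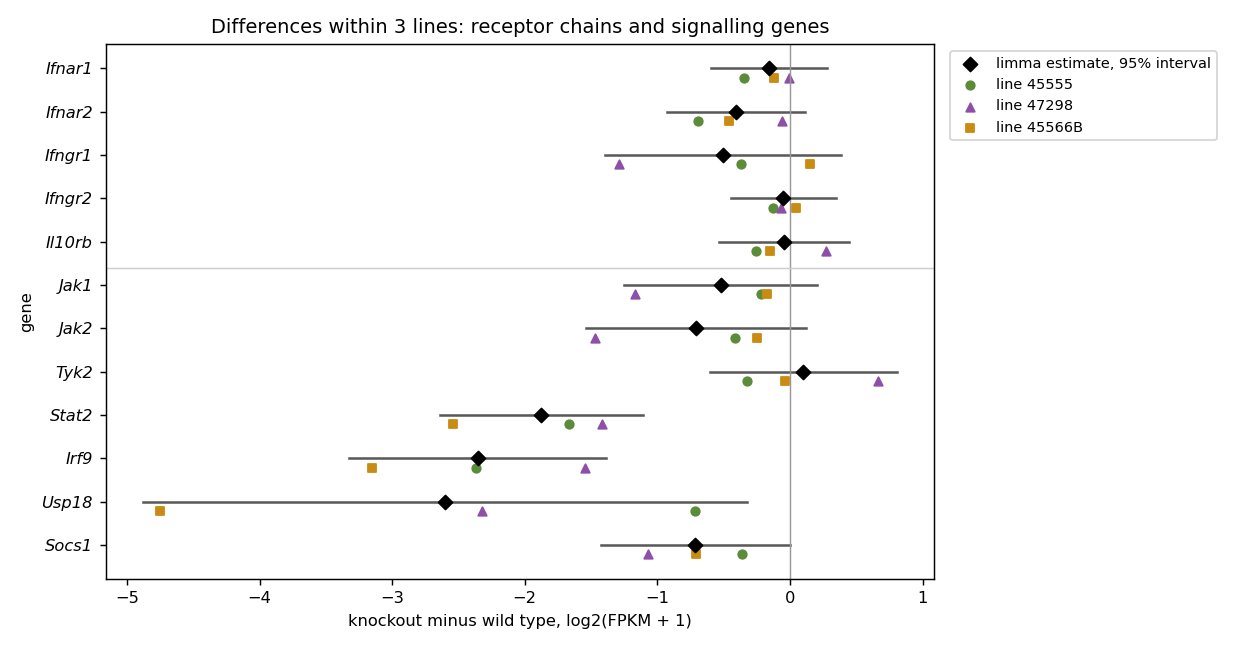
Knockout minus wild type in log2(FPKM + 1) for the 5 receptor chains (above the grey line) and 7 signalling genes, with coloured marks for each of 3 lines and black diamonds with bars for the limma estimate and its 95% interval. The intervals of all 5 chains include 0, whereas those of Stat2, Irf9, Usp18 and Socs1 lie below it; none of these genes passed the adjusted threshold.

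Irf9, Stat2 and Usp18, which act just after the receptors, had larger differences in the same fit, though none passed. Irf9, the DNA-binding subunit of ISGF3, had 13.3 FPKM (wild type) and 1.78 (knockout) for 45555, with 23.4 and 7.35 for 47298, and 43.7 and 4.03 for 45566B. Its fitted log2 difference was -2.36 (SE 0.35, limma adjusted p = 0.762). Stat2, the other subunit particular to type I and III signalling, had -1.88 (SE 0.28), and Usp18, which binds IFNAR2 and limits signalling, -2.60 (SE 0.83), both with an adjusted p of 0.762. Usp18 was -1.52 without 45566B and -3.54 without 45555. Socs1, a feedback inhibitor of Janus kinases, had -0.71 (SE 0.26, adjusted p = 0.762), and -1.33 with a pseudocount of 0.1 (adjusted p = 0.766). The kinases carried by the chains differed less clearly, with Jak1 at -0.52 (SE 0.27), Jak2 at -0.71 (SE 0.30) and Tyk2 at 0.10 (SE 0.26). Without 47298 they were -0.20, -0.33 and, with the sign turned, -0.18.

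Of 16 signalling proteins tested, 11 were lower and 5 higher, with 5 lower at an unadjusted p under 0.05, 0 called and a median of -0.62, against -0.01 for all genes, of which 51.4% were lower, and -0.16 for the 5 chains. Of 16 ISGF3 targets tested, 16 were lower in 3 of 3 lines, 11 at an unadjusted p under 0.05, with 0 called and a median of -1.84. Over all tested genes 13.3% were lower in 3 of 3 lines, and 3.36% had an unadjusted p under 0.05 in either direction. In the same fit 6 of 8 fibroblast and mesenchymal markers were lower (median -1.63), as were 5 of 5 adipocyte markers (median -1.43), 0 of them at an unadjusted p under 0.05, and their part in the list differences was not tested. The members with the smallest p, besides Stat2 and Irf9, were Ifit1, which binds viral RNA (-1.66, SE 0.21), and Isg15 (-2.63, SE 0.38). Of 13 gamma-activated targets tested, 12 were lower, 7 at an unadjusted p under 0.05, with 0 called and a median of -1.37. In 3 of 3 lines 9 were lower, and Irgm1, for example, rose from 42.9 to 101.7 FPKM in 47298. Gbp2, a guanylate-binding protein, had -1.79 (SE 0.26) and Irgm2, an immunity-related GTPase, -2.15 (SE 0.49). The signalling and ISGF3 lists share members, Stat2, Irf9 and Usp18 among them, and Socs1 is in both the signalling and the gamma list.

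Genes for uptake and turnover of the receptors had differences of either sign. Of 15 tested, 7 were lower and 8 higher, 0 at an unadjusted p under 0.05, with a median of 0.02. The smallest p values belonged to Rnf26, a ubiquitin ligase, with 29.4 FPKM (wild type) and 45.2 (knockout) for 45555, with 22.7 and 27.04 for 47298, and 24.4 and 26.3 for 45566B (fitted 0.32, SE 0.17), and Prkd2, a protein kinase that phosphorylates IFNAR1 (-0.29, SE 0.17).

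Most genes of a list of interferons and cytokines of the interleukin 10 family were listed at 0. The list is wider than the ligands of these receptors, since Il19, Il20 and Il24 act through other chains. Each of its 26 genes had a row, and 19 stood at 0 in all 9 libraries, including Ifng, which encodes interferon gamma. Only Ifnb1 and Il24 reached 1 FPKM. Ifnb1, encoding interferon beta, had 2.06 FPKM (wild type) and 2.73 (knockout) for 45566B, 0.348 in 33373, 0.168 in 33377 and 0.722 in 46295, and was listed at 0 in the 4 libraries of 45555 and 47298. Il24, a cytokine of the interleukin 10 family, was at 0.960 and 2.30 FPKM in 45566B, 3.07 in 33373 and 0.576 in 46295, and was listed at 0 in the other 5.

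The panel comparison set the knockout libraries of 45566B and 46295 against the wild-type libraries of 45566B, 33373 and 33377, and so compares largely different lines. It shares the 45566B libraries with the comparison within lines. limma, with no block, called 0 of 11838 genes (0.0%), with 215 (1.82%) at an unadjusted p under 0.05, among them 0 of the 5 chains. Ifnar2 had wild-type levels of 60.1, 75.7 and 44.8 FPKM against knockout levels of 43.3 and 44.2, so the states did not overlap, as in 6.43% of tested genes in that direction, with a log2 difference of -0.42 (SE 0.29, interval -1.17 to 0.33, adjusted p = 0.999). Without 33373 the difference was -0.24. Of the 5 chains only Ifnar2 was both lower in 3 of 3 lines and lower without overlap in the panel, as were 2.37% of the genes in both fits, which share the 45566B libraries. Ifngr1 had wild-type levels of 58.6, 56.7 and 44.8 FPKM against knockout levels of 65.1 and 59.6, without overlap in the other direction, as in 7.67% of genes (0.23, SE 0.23, interval -0.37 to 0.83, adjusted p = 0.999). Without 33377 it was 0.11.

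The other chains overlapped between the states in the panel. Ifnar1 had a log2 difference of -0.28 (SE 0.25, interval -0.91 to 0.36), Ifngr2 of 0.03 (SE 0.33, interval -0.81 to 0.87) and Il10rb of 0.18 (SE 0.48, interval -1.05 to 1.4), each with an adjusted p of 0.999. Ifnar1 ranged from -0.43 to -0.13 when 1 library was left out. The columns of 33373 and 33377 are named differently from the other 7, and whether all 9 libraries were normalized together cannot be told from the table. Leaving out these lines gave -0.27 for Ifnar1, -0.45 for Ifnar2, 0.09 for Ifngr1, -0.24 for Ifngr2 and -0.19 for Il10rb. The summed epithelial markers were 3154 and 3164 FPKM in the knockout libraries and 3141, 2625 and 163.3 in wild type, and their part in these differences was not tested. In the same fit Irf9 stood at 43.7, 47.2 and 49.2 FPKM in wild type against 4.03 and 3.58 in knockout (-3.31, SE 0.22, adjusted p = 0.0749), and it passed with a pseudocount of 0.1 (-3.59, adjusted p = 0.045). Over the other alternatives its adjusted p was 0.0544 to 0.422.

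The differences between lines were tested in the fit of lines 45555, 47298 and 45566B, by limma's moderated F test of the line terms. It called 1694 of 12063 genes (14.0%), and 0 of the 5 chains. Il10rb came nearest, with F = 20.2 and an adjusted p of 0.0513, and passed with a pseudocount of 0.1 (adjusted p = 0.0414) and without either library of 47298 (0.0325 without wild type, 0.0396 without knockout). The adjusted p was 0.129 for Ifngr1 (0.0482 without 47298 knockout), 0.161 for Ifngr2, 0.241 for Ifnar2 and 0.263 for Ifnar1. The test calls 0 genes when either library of 45555 or of 45566B is left out. Jak1 was called between lines (F = 26.2, adjusted p = 0.0412), though not with no filter on low values (0.0679).

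The balance of the chains within a receptor is given as a ratio of FPKM. Ifnar2 exceeded Ifnar1 in every library, by 2.46 to 4.35 times. In the pairs the ratio (wild type, then knockout) was 3.11 and 2.46 in 45555, 2.86 and 2.76 in 47298, and 3.99 and 3.15 in 45566B, lower in the knockout in 3 of 3 lines, while 46295 knockout stood at 4.01, within the range of the wild-type libraries. Ifngr1 and Ifngr2 were near equal in most libraries, with ratios of 0.934 to 1.38 outside line 47298. The libraries of 47298 had ratios of 4.18 (wild type) and 1.78 (knockout). No test was made of these ratios.

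**Figure D3:**
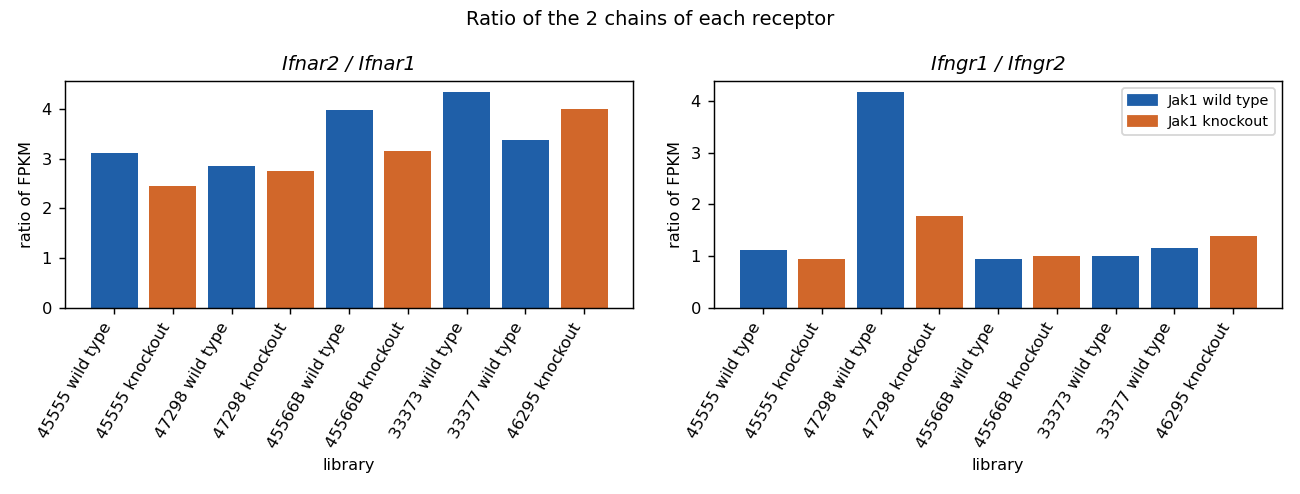
Ratio of FPKM of Ifnar2 to Ifnar1 and of Ifngr1 to Ifngr2 in each library (bars from 0; blue for Jak1 wild type, orange for knockout). The Ifngr1 to Ifngr2 ratio is 4.18 in 47298 wild type and 1.78 or less in the other 8 libraries.

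Coding genes within 250 kb of the chromosome 16 cluster showed no shared direction with the receptors. Of 11 such genes, 8 were tested, with 4 lower and 4 higher in the comparison within lines and 0 at an unadjusted p under 0.05. The smallest p values were those of Gart, an enzyme of purine synthesis (log2 difference 0.48, SE 0.23), and Dnajc28, a protein with a J domain (-0.49, SE 0.29), both with a limma adjusted p of 0.762. Between lines, 1 of the 8, Itsn1, an endocytic scaffold, was called (limma F test, adjusted p = 0.0387), as were 14.0% of all tested genes. Near Ifngr1 on chromosome 10, the receptor genes Il22ra2 and Il20ra stayed at or under 2.23 and 0.035 FPKM, and of 5 coding genes only Pex7, a peroxisomal import receptor, was tested (-0.13, SE 0.26).

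**Figure D4:**
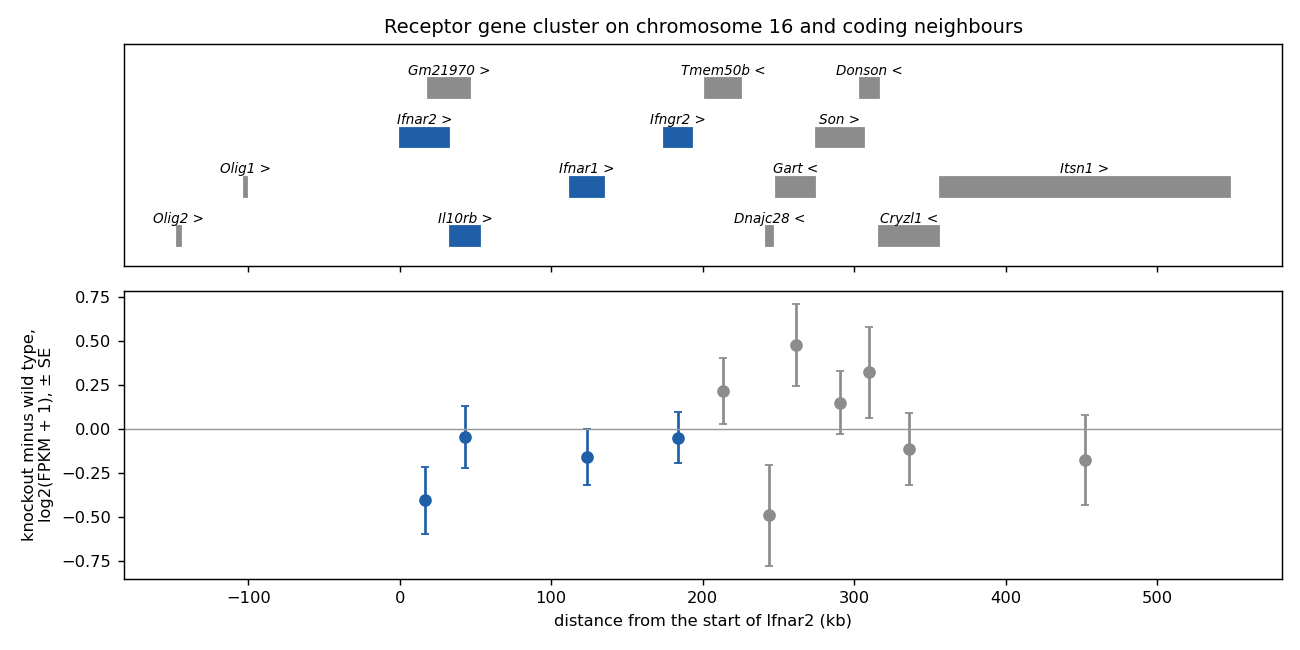
Upper part, gene bodies to scale by distance from the start of Ifnar2 in kb (blue, receptor chains; grey, other coding genes except Atp5o, whose models overlap several genes; > plus strand, < minus strand). Lower part, knockout minus wild type in log2(FPKM + 1) within 3 lines, with the limma estimate and its SE for each tested gene. The 4 receptor genes lie between -0.41 and -0.05, and Gart and Dnajc28 stand farthest from 0 on either side.

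As a description over the 9 libraries, which share lines and differ in depth, the log2 levels of the chains were correlated with each other. The highest Pearson r were those of Ifnar2 with Il10rb (0.74) and of Ifnar1 with Ifnar2 (0.71). Ifngr1 and Ifngr2 had r = 0.06. Among 11332 genes the 3 most like Ifnar2 were Ly96, Psme2 and Trim12c (r = 0.915, 0.904 and 0.893). Those most like Ifnar1 were Suv420h1, Nek3 and Zfp65 (0.962, 0.951 and 0.926), and those most like Il10rb were Tnfsf13, Dab2ip and Arnt2 (0.968, 0.966 and 0.961). Ifngr1 was nearest to Rarres2, Zfp438 and Rpl39l (0.984, 0.955 and 0.947), values that its single high library can set. For Ifngr2 they were Mettl24, Enpp3 and Ccdc64 (0.958, 0.944 and 0.93). These names depend on the measure: with Spearman's rho, or without 33373 and 33377, 0 or 1 of each 3 stayed among the 3 nearest.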

How the data were processed

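The authors deposited FPKM values per gene symbol in 2 tables, of which the smaller repeats 4 of the 9 libraries with identical values, so only the larger was used. Per the submitters' processing notes the values come from cutadapt, TopHat2 2.1, Cufflinks 2.2 and Cuffnorm on mm10. The sources used here do not give annotation, scaling option, strand or filters. Of 24346 rows, 4 with repeated date-like names were left out. Count tests were not used, since FPKM are not counts. log2(FPKM + 1) was fitted with limma 3.58.1 in R 4.3.3 (variance prior following the mean, two-sided, Benjamini-Hochberg at 0.05) for genes whose mean over the fitted libraries reached 1 FPKM. Fold changes on this scale understate those of low genes. The line was the block for 45555, 47298 and 45566B, as the titles name the same line. Deviations from the state means correlated within lines at 0.7, 0.399 and 0.804. Relative depth came from the most frequent ratio of values under 0.5 FPKM to 45566B wild type. The fits were also run on simulated data with independent genes and variances from limma's own fitted prior. That setting is simpler than these data and does not show how well the fits hold here. Members and lists were chosen with earlier results of these data known. Named genes were the 5 chains, the signalling genes of a fixed rule (1 is not reported here), those of smallest p in each other list, the 3 genes most like each chain, and neighbours within 250 kb. Alternatives were other pseudocounts, filters, scaling, priors and blocks, and leaving out libraries or lines.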

Additional observations from a re-analysis of the deposited data

Results flagged for a closer look

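Among 24 groups checked (5 chains and 7 signalling genes, wild type and knockout), 3 held a library set apart from its group by Dixon's criterion, which chance alone meets in about 1 of 20 groups. Ifngr1 in 47298 wild type, at 194 FPKM, was the highest of 5 wild-type libraries. Ifngr2 in 45566B knockout, at 64.7 FPKM, was the highest of 4 knockout libraries, and the wild-type library of the same line was likewise the highest of its state. Il10rb in 45555 knockout, at 18.5 FPKM, was the lowest of 4 knockout libraries.

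For 3 chains the difference between knockout and wild type had opposite signs in different lines. Over all tested genes 13.3% were lower and 14.3% higher in 3 of 3 lines, so most genes likewise lacked a shared sign. With 1 library for each line and state the contrasts between lines were not tested. For Ifngr1 the log2 differences of 45566B and 47298 lay 1.44 apart. For Il10rb those of 47298 and 45555 lay 0.523 apart, and for Ifngr2 those of 45566B and 45555 lay 0.173 apart.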

How the results depend on the processing

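Within lines, the differences of Ifnar1, Ifnar2, Ifngr1 and Ifngr2 kept their sign and stayed above the threshold in all 10 alternatives (for Ifnar2 -0.58 to -0.26, adjusted p 0.74 to 1.0). Il10rb changed sign over all 9 libraries with no block (0.0413), and ranged from -0.205 to 0.0566 with 1 line left out, above 0 without 45555 and without 45566B (0.00644). Tyk2 ranged from -0.181 (without 47298) to 0.311. Without the replicate block, which pairs the libraries of a line, the fit called 0 genes and Ifnar2 kept -0.41 with an adjusted p of 1.0. Leaving out 1 line gave 0 to 6 called genes, with 6 when 47298 was left out. In the panel, a pseudocount of 0.1 gave 4 called genes. Ifngr2 there became -0.26 without 45566B knockout, -0.17 without 33377 and -0.24 without 33373 and 33377, in a range of -0.26 to 0.32 over single libraries left out. Il10rb became -0.26 without 33377 and -0.19 without both lines, in a range of -0.26 to 0.43. Jak1 became 0.0301 and 0.156 under these same settings (range over single libraries -0.825 to 0.0301), Jak2 ranged from -0.335 (without 46295) to 1.4, and Tyk2 from -0.466 (without 46295) to 0.627, with -0.132 without 45566B wild type. Between lines, leaving out 1 library gave 0 to 3024 called genes, each fit with 1 residual degree of freedom. Il10rb passed with a pseudocount of 0.1 (F = 20) and without either 47298 library (F = 33.2 and 28.5, in a range of 7.46 to 33.2), and Ifngr1 without 47298 knockout (F = 23.3, in a range of 3.13 to 23.3). Where a fit was left with 1 library in a state, that library is assumed to vary like the others. The cause of these changes was not tested. Scaling to the 75th percentile moved the median of all genes from -0.01 to 0.00 within lines.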

Other observations

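Some other receptors of the same structural family were uneven across the libraries. F3, tissue factor, which starts blood clotting and belongs to the class II cytokine receptor family, had 269 FPKM (wild type) and 82.6 (knockout) for 45555, with 170.2 and 19.2 for 47298, and 98.2 and 99.2 for 45566B (limma, log2 difference within lines -1.59, SE 0.64, adjusted p = 0.762). With 32.9 FPKM in 33373, 13.2 in 33377 and 133 in 46295, F3 stood the other way in the panel (limma, 1.68, SE 0.84, adjusted p = 0.999). There both knockout libraries lay above the wild-type ones, as in 7.67% of tested genes. Ifnlr1, the chain that joins IL10RB in the type III interferon receptor, was listed at 0 in both 45555 libraries and stood at 0.2 and 0.838 FPKM in 47298, 0.0917 in 33377, 3.57 and 3.87 in 45566B, 4.05 in 33373 and 7.96 in 46295. Il20rb, a receptor chain for cytokines of the interleukin 10 family, was at 12.2 FPKM in 47298 knockout and at 1.51 or less in the other 8 libraries. Il10ra was listed at 0 in every library, and Il20ra and Il22ra1 stayed at or under 0.035 and 0.125 FPKM. Of the 7 family genes besides the 5 chains, 3 were tested within lines and 0 were called. In the test between lines Ifnlr1 was called (limma F test, adjusted p = 0.0418), as were 14.0% of all tested genes. F3 and Il20rb were not called (0.408 and 0.218).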
